A study of Mus musculus with 6 samples.

Results

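Oxidative phosphorylation is the process by which mitochondria turn the electrons of nutrients into ATP. Complexes I and II take electrons from NADH and from succinate, complex III and cytochrome c carry them on, and complex IV passes them to oxygen. The protons pumped along the way drive the ATP synthase, also called complex V. Most subunits of these complexes are encoded in the nucleus and a small core is encoded in the mitochondrial genome, so a working complex needs transcripts from both. The kidney tubule, from which renal carcinoma cells derive, is rich in mitochondria.

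The genes described here were those that the deposited annotation placed in the KEGG pathway of oxidative phosphorylation and that lie in the nuclear genome. They numbered 121 of the 78298 genes in the table, and the other 13 genes of the pathway are encoded by the mitochondrial genome. RENCA, an established mouse renal adenocarcinoma cell line, was transduced with a lentivirus carrying the mouse Aqp1 coding sequence under the ubiquitin C promoter (oe-AQP1, n = 3) or with the same vector lacking the insert (oe-NC, n = 3). Aquaporin-1, the product of Aqp1, is a water channel of the proximal tubule. Starting 48 h after transduction, cells of both groups were selected during 14 days (puromycin, 2 μg/mL). The labels give a time of 2 weeks. Both groups carried a viral backbone and a resistance cassette, and the comparison asked what the Aqp1 insert changed. The study describes a stable line per vector and does not say whether the 3 samples of a group came from separate transductions, so the p-values measure the spread between these samples, which may be technical.

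Each sample held between 18385714.02 and 21920898.67 expected read counts. Levels are given as CPM, the count scaled to the library size after TMM adjustment, and changes as the log2 fold change (log2FC) of oe-AQP1 over oe-NC from limma-voom, with its standard error (SE) and the Benjamini–Hochberg false discovery rate (FDR) over the 15522 genes kept by a low-count filter. A gene was called lower or higher at an FDR under 0.05, and a DEG also had an absolute log2FC above 1. Expected counts of Aqp1 were 7713, 8545 and 7838 in oe-AQP1 and 41, 25 and 45 in oe-NC. Of the renal epithelial markers, Pax8 stood at 164 ± 7.03 and 172 ± 7.08 CPM in oe-AQP1 and oe-NC (SD, n = 3), and Epcam, an epithelial adhesion gene, had no count in any sample. Of the leukocyte markers, Ptprc, Adgre1, Itgam and Cd3e had at most 3 counts in any sample, while Cd68 had 576 to 777, Lyz2 234 to 361 and Csf1r 56 to 202. Fractional counts, where reads were divided among genes, stood in some sample for 45 of the 121 genes, among them Atp5f1b, Ndufb6, Ndufs1, Cox4i1, Cox5a, Ppa1 and Tcirg1. In bulk RNA a change in the RNA of each cell and a change in the mix of cells cannot be told apart.

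The oe-NC samples differed among themselves in these genes, oe-NC replicate 1 the most. Against the mean of the other two oe-NC samples it was lower in 72 of the 81 respiratory chain and ATP synthase genes kept, with a median log2 difference of -0.24, while its median over all 15522 genes was 0.00. Across the 81 genes this difference had a Spearman correlation of 0.43 with transcript length, a description over genes of a single library, with shorter transcripts the lower ones. Over all 15499 genes with a length this correlation was 0.17. Measured the same way, oe-NC replicate 3 differed in the other direction: 7 of the 81 genes were below the mean of the other two oe-NC samples, which include oe-NC replicate 1, with a median of 0.13 and correlations with length of -0.48 over the 81 genes and -0.18 over all genes. For oe-NC replicate 2 the median was 0.08, and in the oe-AQP1 samples the medians lay between -0.02 and 0.03. The correlation with length over the 81 genes was -0.17 for oe-NC replicate 2. It was -0.28, 0.26 and 0.00 for oe-AQP1 replicates 1, 2 and 3. Mitochondrially encoded genes took 2.37% of the counts of oe-NC replicate 1. They took 2.98% and 3.00% in oe-NC replicates 2 and 3 and 1.71% to 1.76% in the oe-AQP1 samples. The part of these features in the results was not tested, and counts are therefore given with and without oe-NC replicate 1.

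Nuclear-encoded oxidative phosphorylation genes were on balance slightly lower in oe-AQP1. Of the 121 genes, 107 were kept by the filter. Called lower were 29 of the 107 (27.1%), and 16.6% of all genes tested were called lower. Called higher were 7 (6.54%), against 16% of all genes tested. Only Tcirg1 and Cyct were DEGs in the fit of all 6 samples, both higher, and 5.23% of all genes tested were DEGs. The median log2FC of the 107 was -0.09, and that of all genes tested was 0.00. In 32 genes every oe-AQP1 sample lay below every oe-NC sample, and in 10 every oe-AQP1 sample lay above; for all genes tested these shares were 23.8% and 23.5%. Together the nuclear genes summed to 13003, 12876 and 12772 CPM in oe-AQP1 and to 13256, 14266 and 14447 CPM in oe-NC. The sums of the groups did not overlap, and oe-NC replicate 1 lay closest to the oe-AQP1 samples. Atp5f1b alone held 1449, 1452 and 1455 CPM of the oe-AQP1 sums and 1986, 1941 and 1920 CPM of the oe-NC sums. In oe-NC replicate 1 its difference from the oe-AQP1 samples was larger than that of the whole sum. The separation of the sums therefore depended on this gene.

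Without oe-NC replicate 1, 69 of the 107 genes were lower and 7 higher, and the corresponding shares of all 16085 genes tested in that fit were 20.7% and 19.4%. All 29 genes lower in the full comparison were among the 69. The median log2FC of the 107 genes was then -0.17.

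**Figure D1:**
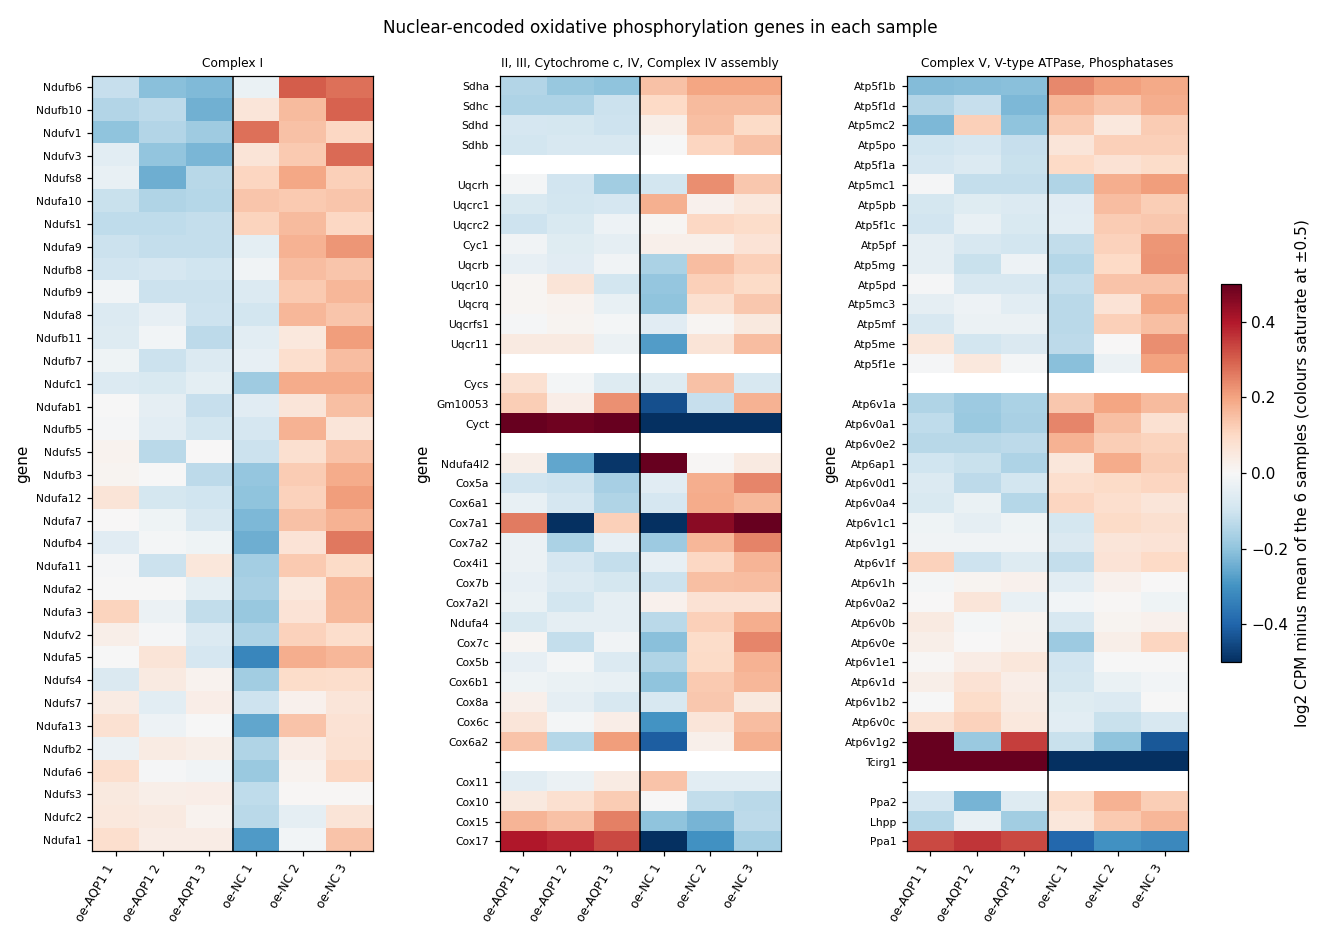
Level of 106 of the 107 genes kept (rows, grouped by complex and ordered by log2FC within it) in each of the 6 samples (columns), as log2 CPM minus the mean of the 6 samples. Blue is below and red above that mean, and colours saturate at 0.5 in either direction. The third and the second oe-NC samples are mostly red in the respiratory complexes, oe-NC replicate 1 is blue in many small subunits, and Tcirg1, Cox17, Ppa1 and Cyct run the other way.

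By complex, the counts ran from 4 of 4 genes lower in complex II to 2 of 15 in complex IV, and differences between complexes were not tested. Complex II had the highest share with and without oe-NC replicate 1, while the order of the other complexes changed without it. Without that sample, 26 of 35 genes were lower in complex I, 4 of 4 in complex II and 6 of 9 in complex III. In complexes IV and V, 12 of 15 genes each were then lower. Of all genes tested, 16.6% were lower with all samples and 20.7% without oe-NC replicate 1. Of the 87 subunit genes of complexes I to V and cytochrome c, 81 were kept, 22 were lower, and 1, Cyct, was higher. Of the 81, 67 had a log2FC below 0 and the median was -0.11. Without oe-NC replicate 1, 60 of the 81 were lower and 1 was higher. The vacuolar proton pump and the phosphatases that KEGG files under the same pathway, and the assembly factors of complex IV, held 6 of the 7 genes that were higher.

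**Figure D2:**
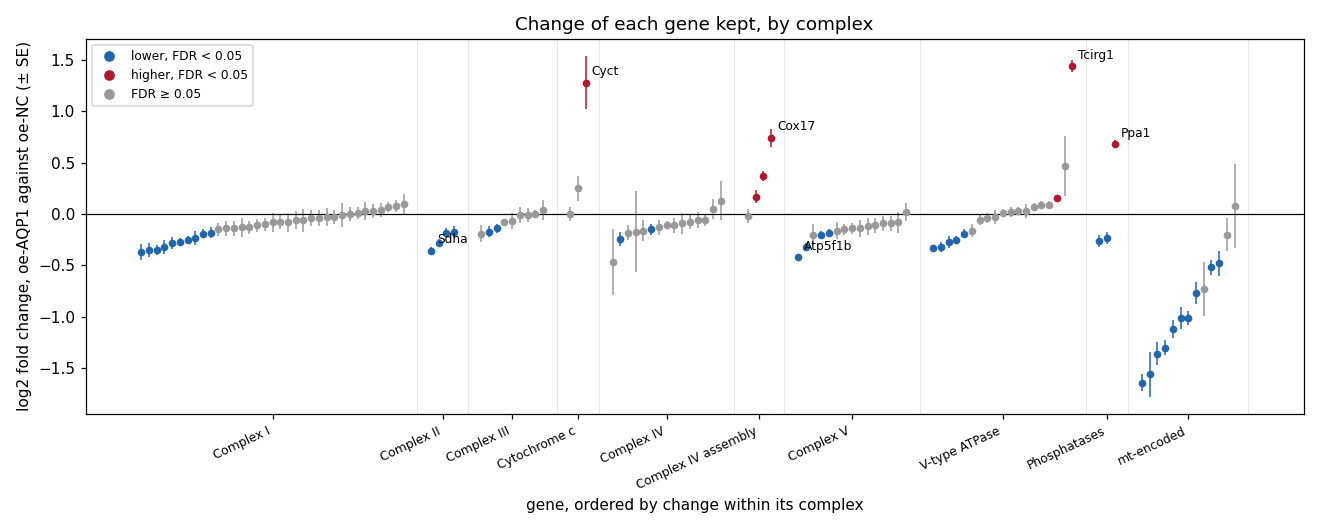
Log2FC (oe-AQP1 over oe-NC, points) with its SE (bars) for each gene kept, ordered within its complex, with the 13 mitochondrially encoded genes at the right for comparison. Complex II lies wholly below 0, the assembly factors of complex IV lie mostly above it, and the mitochondrially encoded genes reach -1.64.

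To show the DNA in front of these genes, 250 bases before the transcription start are printed for 4 of them, from RefSeq on GRCm38.p6 and in the direction of transcription. On both strands, 4 motifs were searched: the binding motif of nuclear respiratory factor NRF1 (GCGC, AT and GCGC without a gap), the ETS motif bound by GABP (CCGGAAG), the CLEAR motif of lysosomal genes (TCACGTGA) and the core of the interferon-stimulated response element (GAAA, any 2 bases, then GAAA). Atp5f1b, the most abundant member per length, held none of them. Atp6v1a is shown for its CLEAR motif, which reads the same on both strands, Cox10 for an interferon-stimulated response element core followed by an ETS motif, and Tcirg1 for an interferon-stimulated response element core on the other strand, in front of the most downstream of its 3 listed starts. Capitals mark the motif matches.
Atp5f1b, chr10:128083057-128083306 (+): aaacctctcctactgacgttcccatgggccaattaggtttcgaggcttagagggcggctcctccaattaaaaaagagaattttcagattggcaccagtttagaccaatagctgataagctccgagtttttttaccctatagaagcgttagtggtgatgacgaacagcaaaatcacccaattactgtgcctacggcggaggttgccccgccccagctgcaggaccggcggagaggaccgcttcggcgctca
Atp6v1a, chr16:44139260-44139509 (-): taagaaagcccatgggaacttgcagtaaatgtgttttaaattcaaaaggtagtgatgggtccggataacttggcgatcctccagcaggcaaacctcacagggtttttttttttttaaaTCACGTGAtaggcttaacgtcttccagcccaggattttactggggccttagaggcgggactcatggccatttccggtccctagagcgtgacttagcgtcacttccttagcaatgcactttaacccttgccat
Cox10, chr11:64079473-64079722 (-): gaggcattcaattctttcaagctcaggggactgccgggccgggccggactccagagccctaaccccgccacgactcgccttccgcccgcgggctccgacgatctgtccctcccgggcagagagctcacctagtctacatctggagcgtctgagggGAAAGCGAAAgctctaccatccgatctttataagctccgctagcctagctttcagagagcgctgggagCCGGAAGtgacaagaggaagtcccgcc
Tcirg1, chr19:3905231-3905480 (-): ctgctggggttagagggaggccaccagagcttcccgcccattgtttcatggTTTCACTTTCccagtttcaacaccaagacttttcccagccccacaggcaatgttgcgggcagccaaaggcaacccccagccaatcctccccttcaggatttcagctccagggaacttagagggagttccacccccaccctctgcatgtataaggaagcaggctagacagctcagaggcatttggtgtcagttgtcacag

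RefSeq promoters were matched for 93 of the 121 genes. The ETS motif stood in the 250 bases of 16.1% of them and of 7.83% of all 27025 genes in the promoter table. For the NRF1 motif these shares were 5.38% and 0.877%, for the CLEAR motif 2.15% and 0.907%, and for the interferon-stimulated response element core 5.38% and 3.46%. Among the 22 matched genes that were lower, 2 held the ETS motif and none the NRF1 motif. The 5 genes with the NRF1 motif were Atp5mc2, Atp5me, Atp6v1e1, Cox6a1 and Ndufa11, and none of them was called with all samples, while Cox6a1 and Ndufa11 were lower without oe-NC replicate 1. The interferon-stimulated response element core stood before 5 genes: Cox10, Tcirg1, Ndufa9, Ndufs3 and Atp6v1d. With all samples Cox10 and Tcirg1 were higher, Ndufa9 was lower, and Ndufs3 and Atp6v1d were not called. A match is only an occurrence of these letters in the window.

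Complex I, the NADH dehydrogenase, was represented by 35 nuclear genes, all kept. Of these, 10 (28.6%) were lower and none was higher, against 16.6% and 16% of all genes tested. Their median log2FC was -0.08. The summed level of the complex was 2779, 2703 and 2674 CPM in oe-AQP1 and 2730, 3078 and 3140 CPM in oe-NC, so the groups overlapped through oe-NC replicate 1.

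The core subunits, some of which hold the flavin and the iron-sulfur clusters, included Ndufv1, Ndufs1 and Ndufs8 among the lower genes. Ndufv1 (ENSMUSG00000037916, GRCm39 chr19:4057384-4062814, minus strand), the subunit that takes electrons from NADH, stood at 82.7, 85.8 and 84.0 CPM in oe-AQP1 and at 115, 105 and 102 CPM in oe-NC. The groups were separate and oe-NC replicate 1 was the highest sample, unlike in most subunits. The log2FC of Ndufv1 was -0.35 ± 0.05 (SE, n = 3 per group, limma-voom FDR = 0.000528). Ndufs1, the largest iron-sulfur subunit, was at 161, 161 and 162 CPM against 190, 196 and 189 CPM, a log2FC of -0.25 ± 0.04 (limma-voom FDR = 0.000419). Ndufs8, another iron-sulfur subunit, had a log2FC of -0.28. The core subunits Ndufv2 and Ndufs3 had log2FC values of -0.03 and 0.07 and were not called with all samples; Ndufv2 was lower without oe-NC replicate 1 (FDR = 0.0106).

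Among the 28 accessory subunits, 6 were lower: Ndufb6, Ndufb10, Ndufv3, Ndufa10, Ndufa9 and Ndufb8. Ndufb6, in the membrane arm, was the largest decrease called in the complex. Its level was 90.7, 84.9 and 84.2 CPM in oe-AQP1 and 96.1, 121 and 119 CPM in oe-NC, and its log2FC was -0.37 ± 0.08 (limma-voom FDR = 0.00671). The 3 oe-AQP1 samples lay together and below oe-NC replicate 1, which lay well below the other two oe-NC samples. Ndufb10, also in the membrane arm, was at 48.1, 48.7 and 45.1 CPM against 55.6, 59.5 and 65.4 CPM, a log2FC of -0.35 ± 0.07 (limma-voom FDR = 0.00265). Ndufa10 stood at 144 to 148 CPM in oe-AQP1 and at 175 to 176 CPM in oe-NC. The calls of Ndufa9 and Ndufb8 were lost when any sample other than oe-NC replicate 1 was left out, with adjusted p up to 0.0809 and 0.0767.

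The groups overlapped in each of the other accessory subunits. Ndufa7, the complex I gene with the highest level per length (613 TPM over the 6 samples, with the length of the canonical transcript, but not with the union of exons as length), was at 187, 184 and 177 CPM in oe-AQP1 and at 160, 207 and 211 CPM in oe-NC. Its log2FC was -0.06 with all samples (FDR = 0.636) and -0.19 without oe-NC replicate 1 (FDR = 1.26e-05). Such a shift held for the complex as a whole: 26 of 35 genes were lower once that sample was left out. The count for accessory subunits moved from 6 to 21 of 28.

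Complex II, the succinate dehydrogenase, links the tricarboxylic acid (TCA) cycle to the respiratory chain and is the only respiratory complex encoded wholly in the nucleus. All 4 of its genes were lower, with and without oe-NC replicate 1. Sdha (ENSMUSG00000021577, chr13:74469359-74498436, minus strand), the flavoprotein that oxidizes succinate, was at 141, 137 and 136 CPM in oe-AQP1 and at 173, 179 and 179 CPM in oe-NC. The groups lay far apart relative to their spread, with a log2FC of -0.36 ± 0.04 (limma-voom FDR = 5.01e-05), or 22.1% lower.

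Sdhb, the iron-sulfur subunit, was at 129, 130 and 130 CPM against 137, 148 and 152 CPM. Its log2FC was -0.17 ± 0.05 (limma-voom FDR = 0.0191), a call that was lost when any sample other than oe-NC replicate 1 was left out, with adjusted p up to 0.072. The membrane anchor Sdhc was at 119, 119 and 123 CPM against 142, 148 and 148 CPM, a log2FC of -0.28. The other anchor, Sdhd, was at 76.3, 76.2 and 75.4 CPM against 82.5, 89.8 and 86.6 CPM, a log2FC of -0.18 (adjusted p = 0.0522 by limma-voom without oe-AQP1 replicate 3). In each of the 4 genes oe-NC replicate 1 was the lowest oe-NC sample and still lay above every oe-AQP1 sample. The summed level of the complex was 464 ± 1.73 CPM in oe-AQP1 and 555 ± 17.6 CPM in oe-NC (SD, n = 3), 16.4% lower.

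In complex III, the cytochrome bc1 complex, 2 of 9 genes (22.2%) were lower, against 16.6% of all genes tested. The median log2FC was -0.07. The 2 were the core proteins Uqcrc1 and Uqcrc2, which face the matrix. Uqcrc1 was at 163, 161 and 162 CPM in oe-AQP1 and at 194, 174 and 178 CPM in oe-NC, a log2FC of -0.17 ± 0.05 (limma-voom FDR = 0.0179). Here oe-NC replicate 1 was the highest sample. Uqcrc2 was at 156, 159 and 165 CPM against 169, 180 and 179 CPM, a log2FC of -0.14 ± 0.04 (limma-voom FDR = 0.0274). Uqcrc1 lost its call when any single oe-AQP1 sample was left out (adjusted p up to 0.0772), and Uqcrc2 without oe-AQP1 replicate 1 or 2 or oe-NC replicate 2 or 3 (up to 0.121).

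The nuclear subunits of complex III that carry electrons were not called with all samples. Cyc1, cytochrome c1, had the highest level per length in the complex (473 TPM) and was at 307, 298 and 301 CPM against 316, 316 and 325 CPM. Its groups did not overlap, but the log2FC of -0.08 was not called (FDR = 0.0974). Uqcrfs1, the Rieske iron-sulfur protein, had a log2FC of 0.00 to 2 decimals and overlapping groups. Without oe-NC replicate 1, Cyc1, Uqcrb, Uqcrh and Uqcrq also passed the test as lower, which gave 6 of 9.

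Complex IV, the cytochrome c oxidase, comprised 21 nuclear genes, of which 15 were kept. Lower were 2 (13.3%), Cox4i1 and Cox5a, a share below the 16.6% of all genes tested. The median log2FC was -0.11. Cox5a was at 76.4, 76.0 and 72.7 CPM in oe-AQP1 and at 78.4, 92.5 and 96.6 CPM in oe-NC, a log2FC of -0.24 ± 0.07 (limma-voom FDR = 0.026). The call of Cox5a was lost when any sample other than oe-NC replicate 1 was left out, with adjusted p up to 0.102. Cox4i1, the subunit that contacts the mitochondrially encoded core and the one with the highest level per length by canonical transcripts (989 TPM), though not by the union of exons, was at 327, 315 and 307 CPM against 324, 358 and 375 CPM. Its groups overlapped, its log2FC was -0.15 ± 0.05, and its FDR of 0.0488 lay just under the threshold. Its adjusted p ran from 1.52e-06 without oe-NC replicate 1 to 0.173 without oe-AQP1 replicate 3.

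Complex IV has tissue-specific copies of several subunits, and in RENCA cells the widely expressed copies held nearly all counts. Cox4i2, the lung and hypoxia copy, had 1 to 4 counts per sample, beside 317 and 353 CPM of Cox4i1 in oe-AQP1 and oe-NC. Cox6a2, the heart and muscle copy, had 46 to 75 counts per sample, and Cox6a1 stood at 155 ± 6.0 and 176 ± 17.4 CPM (SD, n = 3). Cox7a1, another muscle copy, had 9 to 23 counts, beside 64.9 and 72.7 CPM of Cox7a2. Cox6b2, Cox7b2, Cox8b and Cox8c had at most 1 count in any sample, while Cox6b1 stood at 68.3 and 71.8 CPM and Cox8a at 122 and 128 CPM. With all samples Cox4i1 was the only one of these copies that was called; without oe-NC replicate 1, Cox6a1, Cox7a2, Cox6b1 and Cox8a were also lower.

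Ndufa4, now counted to complex IV, had a log2FC of -0.11, and its copy Ndufa4l2, known as a hypoxia-induced gene of clear cell renal carcinoma, had only 8 to 17 counts per sample and was not called (log2FC -0.47 ± 0.32, FDR = 0.304). Cox7a2l, which joins complexes III and IV, was at 104, 99.9 and 103 CPM against 108, 112 and 112 CPM without overlap (log2FC -0.11, FDR = 0.0508). Cox6c, a small subunit, was at 173, 165 and 170 CPM against 135, 173 and 185 CPM. Its log2FC was 0.05 with all samples and -0.09 without oe-NC replicate 1, the sample with 135 CPM. Leaving that sample out brought the number of lower complex IV genes from 2 to 12 of 15.

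The assembly factors of complex IV that KEGG lists went the other way: 3 of 4 were higher. Cox17 (ENSMUSG00000046516, chr16:38167353-38182659, plus strand), the chaperone that hands copper to the complex, was at 126, 124 and 120 CPM in oe-AQP1 and at 61.2, 77.3 and 84.7 CPM in oe-NC. Every oe-AQP1 sample lay far above every oe-NC sample, and the log2FC was 0.74 ± 0.09 (limma-voom FDR = 0.0002), or 67.3% higher. Cox15, which makes heme a, was at 71.0, 69.9 and 75.1 CPM against 55.0, 53.7 and 57.6 CPM, a log2FC of 0.37 ± 0.05 (limma-voom FDR = 0.000282). Cox10, which acts before Cox15 in heme a synthesis, was at 38.8, 39.6 and 40.9 CPM against 37.5, 34.4 and 34.1 CPM, a log2FC of 0.17 ± 0.06 (limma-voom FDR = 0.0405), and the call was lost when any sample other than oe-NC replicate 1 was left out and in 3 other settings, with adjusted p up to 0.184. Cox11, a further copper factor, did not pass the test (log2FC -0.02). In a wider list of 51 assembly factors outside the KEGG pathway, 50 were kept, 4 (8%) were lower and 6 (12%) were higher, both below the shares of 16.6% and 16% over all genes, with a median log2FC of 0.04. These counts were 7 and 7 without oe-NC replicate 1. With all samples Cox18, an insertase for complex IV, had the largest increase called (0.54) and Cox20, a chaperone of the same complex, the largest decrease called (-0.52), with 50 to 83 counts per sample and an adjusted p of up to 0.104 over the alternatives.

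Of the 3 cytochrome c genes, the testis form was called and the somatic gene was not. Cycs, the somatic gene, was at 91.1, 85.9 and 82.5 CPM in oe-AQP1 and at 82.5, 95.5 and 81.6 CPM in oe-NC. Reads of Cycs and of Gm10053, a gene model with cytochrome c annotation, carried fractional counts and may be shared between them, so their split is uncertain. Their sum was 152 ± 4.67 CPM against 142 ± 13.5 CPM (SD, n = 3), with overlapping groups. Cyct (ENSMUSG00000056436, chr2:76184284-76196373, minus strand), the testis form, had 27, 28 and 35 counts in oe-AQP1 and 11, 10 and 13 in oe-NC. The groups were separate at this low level, near 1 CPM, and its log2FC was 1.28 ± 0.26 (limma-voom FDR = 0.00373).

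**Figure D3:**
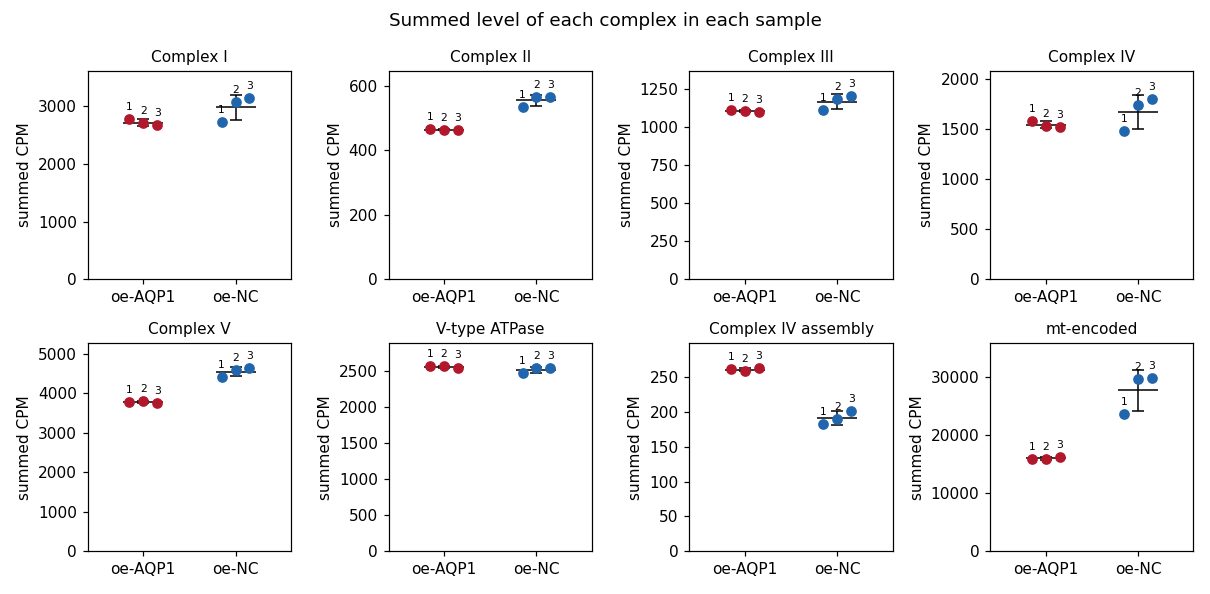
Summed CPM of the genes of each complex in each sample (points, numbered by replicate), with the group mean and SD (lines); all axes start at 0. In complexes II, III and V and in the mitochondrially encoded genes every oe-AQP1 sample lies below every oe-NC sample. In complex III the margin is narrow (1112 against 1113 CPM). In complexes I and IV oe-NC replicate 1 lies among or below the oe-AQP1 samples. The complex IV assembly factors and, narrowly, the V-type ATPase are higher in every oe-AQP1 sample. Tcirg1 alone rises by more than the V-type ATPase sum.

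Complex V, the ATP synthase, was lower in every oe-AQP1 sample by its summed level, as complex II and, narrowly, complex III were. It added up to 3787, 3805 and 3761 CPM in oe-AQP1 and to 4417, 4597 and 4636 CPM in oe-NC, 16.8% lower, or 18% lower without oe-NC replicate 1. Of its 15 genes, all kept, 4 (26.7%) were lower, against 16.6% of all genes tested. In 14 the log2FC was below 0, and the median was -0.14. The 5 genes of the catalytic F1 head summed to 2482, 2508 and 2473 CPM against 3133, 3113 and 3116 CPM, 20.3% lower. Most of the difference in the F1 head and in the whole complex lay in Atp5f1b, at a mean of 1452 against 1949 CPM. The 10 genes of the stalk and membrane part summed to 1304, 1297 and 1289 CPM against 1285, 1483 and 1521 CPM, so there the groups overlapped through oe-NC replicate 1.

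Atp5f1b (ENSMUSG00000025393, chr10:127919132-127926261, plus strand) encodes the catalytic beta subunit and had the highest level per length of all nuclear members, 2044 TPM, and also the highest, 1448.5 TPM, when the union of its exons was used as length. It stood at 1449, 1452 and 1455 CPM in oe-AQP1 and at 1986, 1941 and 1920 CPM in oe-NC. Neither group spread by more than a small part of the gap, and oe-NC replicate 1 was the highest of the 6. The log2FC was -0.42 ± 0.03 (limma-voom FDR = 1.33e-06), or 25.5% lower, and stayed between -0.44 and -0.41 over all alternative settings.

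The rest of the catalytic F1 head followed in part. Atp5f1d, the delta subunit of the central stalk, was at 132, 135 and 125 CPM against 164, 161 and 166 CPM, a log2FC of -0.32 ± 0.04 (limma-voom FDR = 0.000222). Atp5f1a, the alpha subunit, was at 595, 603 and 584 CPM against 677, 664 and 673 CPM, a log2FC of -0.18. Atp5f1c, the gamma subunit, had a log2FC of -0.14 and was not called with all samples (FDR = 0.0643). Atp5f1e, the small epsilon subunit, was at 60.8, 63.2 and 60.6 CPM against 52.7, 59.7 and 70.2 CPM, with overlap and a log2FC of 0.02. In all, 3 of the 5 genes of the F1 head were lower.

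In the stalk and membrane part, 1 of 10 genes was lower, the peripheral stalk gene Atp5po. It was at 189, 191 and 187 CPM against 211, 220 and 220 CPM, a log2FC of -0.20 ± 0.04 (limma-voom FDR = 0.00224). All 10 genes had a log2FC between -0.20 and -0.08, and 8 were lower without oe-NC replicate 1. The c ring, which turns as protons pass, is encoded by 3 genes with different leader peptides. Atp5mc1 had a log2FC of -0.16, Atp5mc2 of -0.20 and Atp5mc3 of -0.09, and none was called with all samples, while Atp5mc1 and Atp5mc3 were lower without oe-NC replicate 1. Atp5mc3 and Atp5mc1 were the abundant forms at 207 and 142 CPM in oe-AQP1, and Atp5mc2 stood at 13.4 CPM.

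Calls are also given by transcript length, since oe-NC replicate 1 differed with length. Of the 81 respiratory chain and ATP synthase genes, 40 had a canonical transcript under 1000 bases, and 6 of these were lower, with a median log2FC of -0.08. Of the 30 with at least 1500 bases, 14 were lower, with a median log2FC of -0.14. Without oe-NC replicate 1 the medians were -0.18 and -0.20, and 26 of 40 and 24 of 30 were lower. For all genes kept the corresponding medians were 0.05 and -0.01 with all samples, and 149 of 1975 short and 2231 of 11906 long genes were lower. These counts were 280 of 2186 and 2773 of 12162 without oe-NC replicate 1, so over all genes too the share of lower genes was smaller among the short ones.

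**Figure D4:**
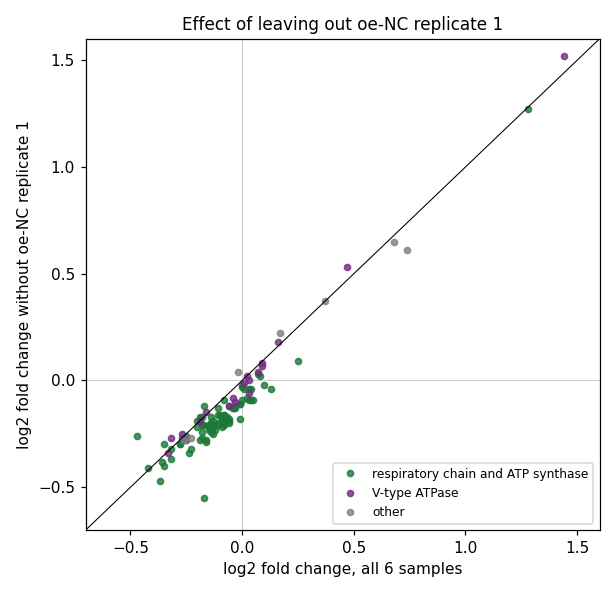
Log2FC with all 6 samples (x axis) against log2FC without oe-NC replicate 1 (y axis) for the 107 genes kept, coloured by class; the line marks equality. Most respiratory chain and ATP synthase genes lie below the line, so their decrease is larger without that sample, while V-type ATPase genes lie nearer to it.

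The V-type ATPase acidifies lysosomes and other vesicles, works in reverse to the ATP synthase and is no part of the respiratory chain, although KEGG places it in the same pathway. Of its 24 genes, 19 were kept, 5 (26.3%) were lower and 2 (10.5%) were higher, against 16.6% and 16% of all genes tested. The median log2FC was 0.01. Leaving out oe-NC replicate 1 gave 7 lower and 2 higher genes. Its summed level was 2575, 2570 and 2551 CPM in oe-AQP1 and 2473, 2547 and 2541 CPM in oe-NC, a difference of 1.8%. The 2 parts of the pump differed. The catalytic V1 domain summed to 1181, 1179 and 1182 CPM against 1207, 1284 and 1277 CPM, 6% lower. The membrane domain with the accessory protein summed to 1394, 1392 and 1369 CPM against 1266, 1263 and 1264 CPM, 9.5% higher. Tcirg1 alone, at a mean of 234 against 86.3 CPM, rose by more than the whole pump or the membrane domain.

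Tcirg1 (ENSMUSG00000001750, GRCm39 chr19:3946050-3957917, minus strand), also known as the a3 subunit of the membrane domain and best known from osteoclasts, was the largest change called among the nuclear members. It stood at 234, 236 and 232 CPM in oe-AQP1 and at 95.4, 81.5 and 82.0 CPM in oe-NC, and the groups were far apart. The log2FC was 1.44 ± 0.06 (limma-voom FDR = 2.4e-08), a 2.72-fold higher level, and it ran from 1.40 to 1.52 over the alternative settings.

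The membrane domain holds 1 of 4 alternative a subunits, and their proportions differed between the groups. Atp6v0a1, the a1 form, was at 127, 122 and 124 CPM in oe-AQP1 and at 164, 154 and 146 CPM in oe-NC, a log2FC of -0.32 ± 0.05 (limma-voom FDR = 0.000787). Atp6v0a2 was not called (log2FC 0.02), and Atp6v0a4, the form of intercalated kidney cells, was at 24.7, 25.4 and 23.6 CPM against 28.0, 27.6 and 27.1 CPM, a log2FC of -0.16 just short of the threshold (FDR = 0.0527). Per length, Tcirg1 made up 63.6%, 64.2% and 64.1% of the a-subunit transcripts in oe-AQP1 and 37.3%, 34.7% and 35.7% in oe-NC. Atp6v0a1 made up 22.1% ± 0.565 and 41.9% ± 0.619 (SD, n = 3). The leading a-subunit transcript was thus Tcirg1 in every oe-AQP1 sample and Atp6v0a1 in every oe-NC sample, on the scale of TPM with canonical transcript lengths.

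In the catalytic V1 domain, Atp6v1a, the subunit that splits ATP, was the only gene of the 9 kept that was called with all samples. Also lower, once oe-NC replicate 1 was left out, were Atp6v1c1 (FDR = 0.00084) and Atp6v1g1 (FDR = 0.0174). Atp6v1a was at 330, 323 and 328 CPM in oe-AQP1 and at 402, 420 and 409 CPM in oe-NC, a log2FC of -0.33 ± 0.03 (limma-voom FDR = 4.86e-05). Its partner Atp6v1b2 was at 158, 169 and 163 CPM against 152, 151 and 158 CPM with overlap (log2FC 0.09, FDR = 0.137), and the kidney copy Atp6v1b1 had no count in any sample. Atp6v1c1 had a log2FC of -0.06, and its copy Atp6v1c2 had 9, 11 and 8 counts in oe-AQP1 and 2, 1 and 2 in oe-NC, too few to be kept by the filter. Atp6v1g1 had a log2FC of -0.04, Atp6v1g2 had 14 to 26 counts per sample and was not called, and Atp6v1g3 had none.

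In the membrane domain the proton-carrying c subunit Atp6v0c, the member of the pump with the highest level per length (655 TPM), was at 429, 440 and 422 CPM in oe-AQP1 and at 392, 376 and 385 CPM in oe-NC. Its log2FC was 0.16 ± 0.03 (limma-voom FDR = 0.00453), with separate groups. Lower, besides Atp6v0a1, were Atp6v0d1 (log2FC -0.19), Atp6v0e2 (-0.27) and the accessory protein Atp6ap1 (-0.25). Atp6v0d2, the osteoclast copy of Atp6v0d1, had no count in any sample.

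The remaining members are H+/K+ ATPases and phosphatases. Atp12a had 3 to 5 counts per sample, Atp4a at most 1, and Atp4b none. Ppa1 (ENSMUSG00000020089, chr10:61483820-61512640, plus strand), the cytosolic enzyme that splits pyrophosphate, was at 233, 237 and 233 CPM in oe-AQP1 and at 141, 150 and 148 CPM in oe-NC. The groups were far apart, and the log2FC was 0.68 ± 0.04 (limma-voom FDR = 4.43e-07), or 60.2% higher. Its mitochondrial counterpart Ppa2 moved the other way, with 29.4, 26.5 and 29.8 CPM against 33.1, 35.2 and 33.9 CPM and a log2FC of -0.26 ± 0.06 (limma-voom FDR = 0.0106, and 0.0585 without oe-AQP1 replicate 2). Lhpp, a phosphatase that also acts on pyrophosphate, had a log2FC of -0.23 ± 0.06 (limma-voom FDR = 0.0168), which lost its call without oe-AQP1 replicate 1 or 3 or oe-NC replicate 3, with adjusted p up to 0.0778.

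**Figure D5:**
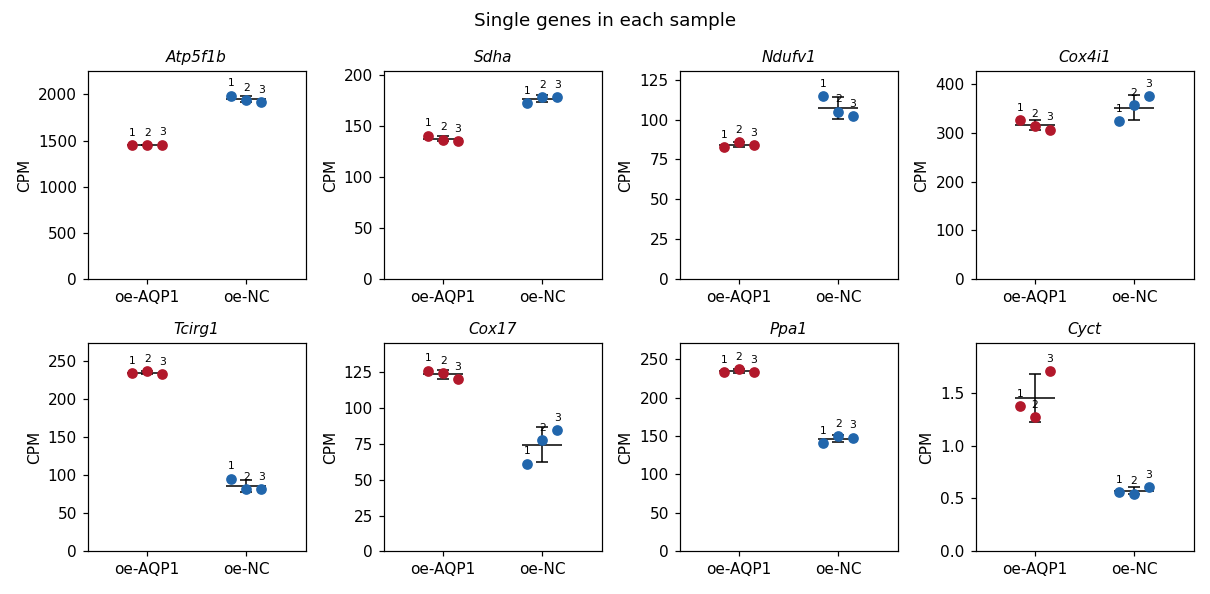
CPM of 8 genes in each sample (points, numbered by replicate), with the group mean and SD (lines); all axes start at 0. Atp5f1b, Sdha and Ndufv1 are lower in every oe-AQP1 sample, Cox4i1 overlaps through oe-NC replicate 1, and Tcirg1, Cox17, Ppa1 and Cyct are higher in every oe-AQP1 sample.

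Against the mitochondrially encoded genes of the same pathway, the nuclear genes changed little. Of those 13 genes 10 were lower, 7 of them DEGs, with a median log2FC of -1.01, and their summed level was 15958 ± 191 CPM in oe-AQP1 and 27681 ± 3505 CPM in oe-NC (SD, n = 3). The nuclear share of all counts ran from 1.28% to 1.30% in oe-AQP1 and from 1.32% to 1.44% in oe-NC. The difference between the nuclear and the mitochondrial set was not tested.

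Of the 13 TCA cycle enzymes, which share the mitochondrial matrix and feed complexes I and II, 9 (69.2%) were lower and none higher. Their median log2FC was -0.21, and 11 (84.6%) were lower without oe-NC replicate 1. For all genes tested the lower share was 16.6%, and 20.7% without that sample. Fh1, the fumarase that follows complex II in the cycle, had the largest decrease called (log2FC -0.40). It was at 123, 121 and 121 CPM in oe-AQP1 and at 156, 165 and 163 CPM in oe-NC, and the groups did not overlap.

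Of 12 regulators of mitochondrial biogenesis, none was lower and 5 (41.7%) were higher with all samples, against 16.6% and 16% of all genes tested. Their median log2FC was 0.15. In the fit without oe-NC replicate 1, 4 were higher, and Gabpa (log2FC -0.13, limma-voom FDR = 0.00687) and Tfb2m, a mitochondrial transcription factor (log2FC -0.20, limma-voom FDR = 0.0178), were lower. Ppargc1a, the coactivator that drives transcription of nuclear respiratory genes, was at 21.9, 21.9 and 24.1 CPM in oe-AQP1 and at 14.9, 16.9 and 16.0 CPM in oe-NC, a log2FC of 0.51 ± 0.07 (limma-voom FDR = 0.000548). Tfam, which binds and transcribes mitochondrial DNA, had a log2FC of 0.23 ± 0.05 (limma-voom FDR = 0.00745). Its levels were 85.0, 84.9 and 86.1 CPM against 68.0, 72.3 and 77.8 CPM. Ppargc1b and Esrra, at 0.15 each, Nrf1, at -0.15, and Gabpa, at -0.09, were not called with all samples.

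Other cell-identity genes moved as well. Of the 8 renal epithelial markers kept, 5 (62.5%) were lower, against 16.6% of all genes tested. Pax2 had a log2FC of 0.25 and was not called (limma-voom FDR = 0.124). Without oe-NC replicate 1, 6 of the 8 were lower and 1, Pax2, was higher (log2FC 0.41, limma-voom FDR = 3.99e-06). The shares of all genes tested in that fit were 20.7% and 19.4%. Lrp2, the endocytic receptor megalin, had the largest decrease called (log2FC -0.93). The summed level of these markers was 806 to 839 CPM in oe-AQP1 and 993 to 1096 CPM in oe-NC. Of the 8 leukocyte markers, 3 were kept and Csf1r and Lyz2 were lower (log2FC -1.51 and -0.52). Cd68, the third, was at 33.7, 35.3 and 32.4 CPM against 29.7, 31.5 and 30.5 CPM without overlap and was not called (log2FC 0.15, FDR = 0.0764). The summed level of the list ran from 47.8 to 51.1 CPM and from 55.7 to 58.8 CPM. The part of these shifts in the results above was not tested.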

How the data were processed

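RNA of 6 RENCA samples was sequenced from Illumina TruSeq libraries. The authors deposited an expected count per gene for each sample, not scaled between samples, with gene annotation and with 2 columns of group means that were not used here. The study's methods name GRCm39 as genome and limma-voom as test. The submitters' processing notes list fastp, HISAT2, featureCounts and Subread with GRCm38 and mm10. The deposited values are partly fractional, and 78168 of the 78298 identifiers were found in GENCODE M39 (GRCm39), the source of positions and canonical transcript lengths. The counter and the build actually used could not be settled from these sources. Without a stated strand setting, reads of overlapping antisense genes cannot be told apart.

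Members were the genes with KEGG identifier mmu00190 whose symbol does not start with mt-. They were sorted into complexes by hand; Gm10053 and Cox5b-ps were placed after the files were read. Members, lists and motifs were chosen with earlier results of these data known.

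Expected counts were rounded to whole numbers, filtered with filterByExpr by group, scaled by TMM (factors 0.9933 to 1.006) and tested with limma-voom (limma 3.58.1, edgeR 4.0.16, R 4.3.3), two-sided, with Benjamini–Hochberg adjustment over 15522 genes. No covariate was used. TPM was computed from the deposited expected counts and canonical lengths. Scripts were tested on simulated counts. Between samples of a group, counts differed by more than sampling noise (chi-square per gene 1.71 to 11.1).

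Genes were named by a rule: DEGs; the 3 largest called changes in each complex with a mean of at least 20 counts; the highest level per length in each complex; paralog pairs; complex II; the extremes of each list and 6 regulators; and Aqp1. Other genes in the text were named after their values were seen, to complete a complex. Alternatives tried were DESeq2 1.42.0, the quasi-likelihood test of edgeR, sample quality weights, other scalings and filters, unrounded counts, a replicate block, a stricter FDR of 0.01 and leaving out each sample. Lengths from the union of exons were added after the data had been seen. Protein sequences were not used here. Single-gene values of some listed genes are not reported here.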

Additional observations from a re-analysis of the deposited data

How the results depend on the processing

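The number of nuclear genes lower in oe-AQP1, 29 with all 6 samples, was 62 with sample quality weights (all 29 among them), 69 without oe-NC replicate 1 and 19 at an FDR under 0.01, and lay between 28 and 34 in the other tests, scalings and filters. For the respiratory chain and ATP synthase these values were 22, 53, 60 and 14. Without oe-NC replicate 1, lower assembly factors outside the pathway numbered 7 instead of 4, and lower biogenesis regulators 2 instead of 0. Leaving out each sample in turn gave 21 to 69 lower nuclear genes, 15 to 60 lower respiratory chain and ATP synthase genes and 1 or 2 higher ones; the value of 2 came without oe-NC replicate 3, when Gm10053 was also called. The cause of these shifts was not tested. Another scaling moved the median of all genes by at most 0.013. DEGs numbered 2 in every setting except 3 without a low-count filter. Cox6c reversed, from a log2FC of 0.05 that was not called to -0.09 without oe-NC replicate 1 (limma-voom adjusted p = 0.0359), and was 0.15 without oe-NC replicate 3. Over the single genes named or called, 693 of 748 alternative values kept their call and direction and 55 lost the call; these were mostly in settings with 5 samples and fell on Cox10, Cox20, Cox4i1, Cox5a, Lhpp, Ndufa9, Ndufb8, Ppa2, Sdhb, Sdhd, Uqcrc1 and Uqcrc2. Of 1273 values of genes not called, 90 became called in the same direction.

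With the replicate number as a block, 30 nuclear genes were lower and 6 higher. The deviations of same-numbered samples correlated at 0.015, -0.02 and -0.073, so the numbers did not pair the samples.

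With the union of exons as length, 3 genes lost the highest level of their complex: Ndufa7 (261 TPM) lay below Ndufa2 (328) and Ndufa6 (280), Sdhd (125 TPM) below Sdhc (131), and Cox4i1 (420 TPM) below Cox6a1 (918) and Cox8a (553). Depth limits the scarce genes: Cyct rests on 10 to 35 counts per sample.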

Other observations

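Some subunit genes carried no KEGG identifier of the pathway and were therefore not counted with it. Ndufb1, a small accessory subunit of complex I, was at 48.2, 45.8 and 48.1 CPM in oe-AQP1 and at 33.2, 37.9 and 41.5 CPM in oe-NC, without overlap between the groups. Its log2FC was 0.34 ± 0.08 (limma-voom FDR = 0.00644, n = 3 per group) and 0.25 without oe-NC replicate 1, and its counts were partly fractional. None of the 35 complex I genes with the identifier was called higher. Ndufs6, an accessory subunit near the iron-sulfur clusters, was at 52.7, 48.6 and 49.7 CPM against 41.0, 47.8 and 55.4 CPM and was not called (log2FC 0.07). Ndufb4c had a log2FC of -0.06, and the small ATP synthase subunits Atp5mj and Atp5mk had log2FC values of 0.00 to 2 decimals and 0.13, with overlapping groups in all 3 genes.

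Among regulators and assembly factors, Gabpb1, the partner of Gabpa in GABP, was at 38.4, 36.1 and 34.9 CPM in oe-AQP1 and at 23.8, 28.5 and 26.8 CPM in oe-NC (log2FC 0.47, limma-voom FDR = 0.000809). Higd1a, a hypoxia-induced protein that binds complexes III and IV, was at 46.4, 42.6 and 41.0 CPM against 54.4, 62.1 and 67.5 CPM (log2FC -0.50, limma-voom FDR = 0.00102). Ndufaf1, an assembly factor of complex I, was at 29.0, 29.4 and 30.5 CPM against 22.3, 21.9 and 21.0 CPM (log2FC 0.45, limma-voom FDR = 0.000251). In all 3 genes the groups did not overlap.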
